A study of Drosophila melanogaster with 14 samples.

Results

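The genes described here encode the Drosophila voltage-gated sodium channel *para* and 7 potassium channels, *Sh*, *Shab*, *Shal*, *Shaw*, *eag*, *slo* and *SK*. They were picked by gene symbol and were all found, as 8 of 17890 genes in the flight muscle table and 8 of 17490 genes in the wing disc table. A name shared by the group is not exact for each gene, since SK channels open with calcium and not with voltage, and slo channels respond to both.

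Voltage-gated sodium channels drive the rising phase of the action potential, and potassium channels bring the membrane back to rest and set how often a cell fires. Drosophila neurons rely on *para* for sodium spikes. Fly muscle fibres instead depolarise through calcium channels, and the fast A-type current of Sh, the delayed rectifier current of Shab and the calcium-activated current of slo are the classical potassium currents described in them.

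The study asked how loss of the TET protein, and loss of its catalytic activity alone, changed gene expression during flight muscle development. RNA-seq covered indirect flight muscle (IFM) of late pupae at 96 h after puparium formation (APF) in 4 groups of 2 libraries, and wing discs of third-instar larvae in 2 groups of 3 libraries, 14 libraries in all. In both tissues, animals homozygous for *Tet null*, an allele without *Tet* transcripts, were set against wild-type w1118 animals (a strain also spelled w11118 in the sample labels). In IFM only, *Tet CD*, a knock-in whose protein carries a catalytic-dead mutation, was set against *Tet-GFP*, a knock-in in which GFP is fused to otherwise intact TET. The CD and GFP columns are numbered 1 and 3 in the table, and these numbers are used below. One *Tet null* IFM library bears a wing disc tissue label in its record, although its age and table column place it with the IFM samples. Each disc sample holds epithelium together with the adult muscle progenitors that lie on it, and each IFM sample is dissected muscle that can hold the axons, glia and tracheae running into the fibres. The sources used here do not give the sex of the animals.

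*Tet*, the gene removed, was at 0.405 and 0.219 RPKM (reads scaled to exon length and to library size) in *Tet null* IFM, and at 2.04 to 4.19 RPKM in the other 6 IFM libraries. It was at 0.352 to 0.475 RPKM in *Tet null* discs and at 148 to 205 RPKM in wild-type discs. The low values of the tables step by whole reads, from which 1 read on a 1 kb transcript was worth 0.0204 to 0.0280 RPKM in IFM libraries and 0.0320 to 0.0465 RPKM in disc libraries. Wild-type disc library 2 stood apart from the other 5 disc libraries. Of 2172 genes at or below 0.1 RPKM in those 5, 43.6% were above 1 RPKM in it, and the same count was 0% for each of the others. Disc results of the 8 genes are therefore given with and without this library. In IFM, *Tet null* library 2 had 1833 genes at 0 RPKM, against 3285 to 4801 in the other libraries. Of 4125 genes at or below 0.1 RPKM in the other 7, 0.218% were above 1 RPKM in it. The same share was at most 0.145% for each of the others.

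The 8 genes lie on 4 chromosome arms of the dm6 assembly, and 4 of the 8 are X-linked. The sodium channel gene *para* (FBgn0285944) spans X:16455027-16533096 on the minus strand. The disc table lists it under an older identifier, FBgn0264255. *Sh* (FBgn0003380) spans X:17924307-18063247 on the minus strand, *eag* (FBgn0000535) X:14955477-15009989 on the plus strand and *SK* (FBgn0029761) X:5340236-5405138 on the plus strand. *Shab* (FBgn0262593) spans 3L:2895017-2959579 on the plus strand and *Shal* (FBgn0005564) 3L:19566851-19584568 on the minus strand. *Shaw* (FBgn0003386) spans 2L:3718185-3729145 on the plus strand, and *slo* (FBgn0003429) spans 3R:24662491-24711595 on the plus strand. Small genes are nested in introns of *para* (*Cnx14D*), *Sh* (*CG12672*, *CG15373* and *CG6867*) and *Shab* (*CG32846* and *CG9970*), none of which overlaps an exon of its host.

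**Figure D1:**
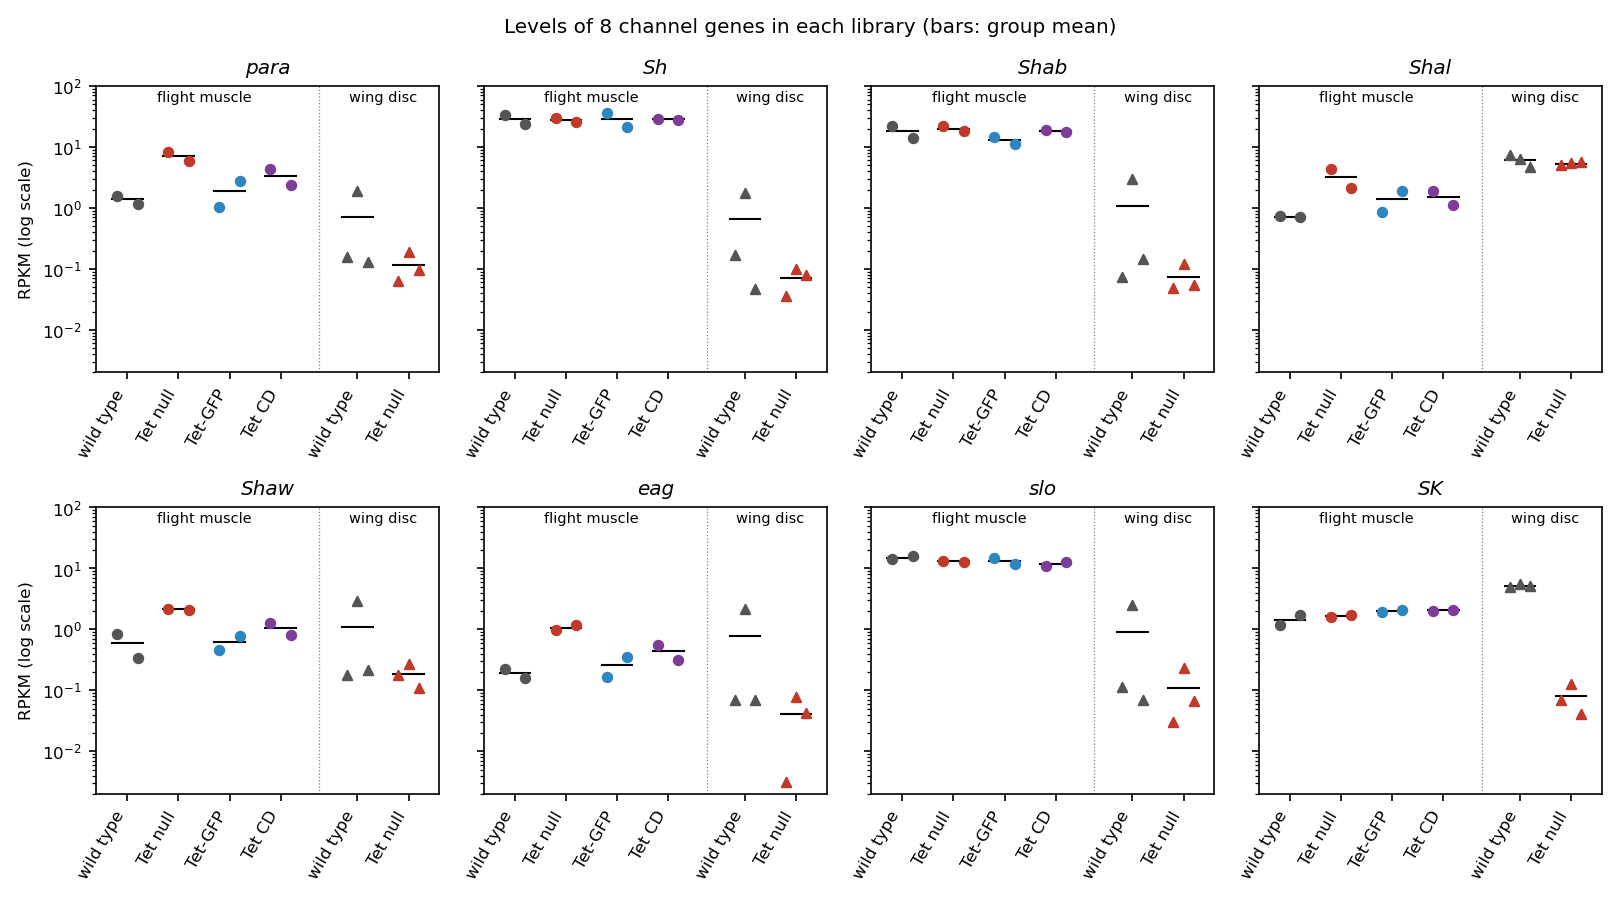
RPKM of each of the 8 genes in every library on a log axis, with circles for IFM libraries, triangles for wing disc libraries, and bars for group means. *Sh*, *Shab* and *slo* lie at or above 11.1 RPKM in every IFM library, and *SK* lies at about 5 RPKM in wild-type discs and at 0.130 RPKM or below in *Tet null* discs.

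Wild-type IFM held mostly the transcripts of 3 potassium channel genes. *Sh* was at 28.6 ± 6.36 RPKM (mean ± SD, n = 2), *Shab* at 18.0 ± 5.46 and *slo* at 15.0 ± 1.18. Together they made up 93.8% and 93.0% of the summed RPKM of the 8 genes in the 2 wild-type libraries. The other 5 genes were far lower: *SK* at 1.43 ± 0.385 RPKM, *para* at 1.38 ± 0.300, *Shal* at 0.716 ± 0.0156, *Shaw* at 0.595 ± 0.359 and *eag* at 0.193 ± 0.0460 (n = 2 each). Of the neighbours in this order, *Shab* and *slo*, *SK* and *para*, and *Shal* and *Shaw* overlapped in their library values. RPKM is scaled here by the joined length of all annotated exons of a gene, from 4606 bases for *Shal* to 22801 for *Sh*. That length is not the length of a single transcript, so the order between genes is approximate.

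Wing discs held a different pair. *Shal*, an A-type potassium channel of neuronal cell bodies and dendrites, was at 6.14 ± 1.32 RPKM in wild-type discs (n = 3), and *SK* at 5.24 ± 0.277 RPKM. The library values of these 2 genes overlapped. In wild-type disc libraries 1 and 3 they made up 94.2% and 93.6% of the summed RPKM of the 8 genes, and the other 6 genes were each below 0.3 RPKM in all disc libraries but wild-type library 2. In that library the 6 genes were at 1.76 to 2.98 RPKM, and *Shal* and *SK* made up 45.5% of the sum. The IFM and disc tables were made separately, and levels in the 2 tissues are set side by side here without a test.

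The comparison of *Tet null* with wild-type IFM asked which genes change when TET is absent. The sodium channel gene rose: *para* was at 8.21 and 5.94 RPKM in *Tet null* IFM and at 1.59 and 1.17 RPKM in wild-type IFM. Both *Tet null* libraries were above both wild-type libraries, and the ratio of means was 5.13. The difference in log2(RPKM + 0.5), the scale of all tests below, was 2.005 (SE 0.25, 95% interval 1.34 to 2.67, adjusted p = 0.028, limma with Benjamini-Hochberg adjustment over all genes tested). The call was lost without any 1 of the 4 libraries, with adjusted p of 0.066 to 0.16 and differences of 1.79 to 2.22, and also with no limit on low values (adjusted p = 0.055). These p-values measure the spread between the libraries at hand, which the design text calls biological replicates.

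The potassium channel gene *eag*, named for the ether-induced leg shaking of its mutants, rose as well. It was at 0.973 and 1.18 RPKM in *Tet null* IFM and at 0.225 and 0.160 RPKM in wild-type IFM. The groups did not overlap. The ratio of means was 5.57 and the difference 1.18 (SE 0.22, 95% interval 0.61 to 1.76, limma adjusted p = 0.048). With a wild-type mean of 0.193 RPKM, *eag* passed the limit of 0.5 RPKM on the mean only through its *Tet null* values. Leaving out the first *Tet null* library or either wild-type library gave adjusted p of 0.096 to 0.17. Without the second *Tet null* library the gene fell below the limit. The call was also lost with no limit on low values (adjusted p = 0.079) and with a constant of 0.1 (adjusted p = 0.057).

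The values of *Shal* and *Shaw*, 2 further potassium channel genes of the nervous system, separated the groups in the same direction but did not pass the test. *Shal* was at 4.29 and 2.10 RPKM in *Tet null* IFM and at 0.727 and 0.705 RPKM in wild type, a difference of 1.54 (SE 0.34, 95% interval 0.65 to 2.42, limma adjusted p = 0.066). The 2 *Tet null* libraries were far apart, and the lower of them was still above both wild-type libraries. *Shaw*, whose product passes a potassium current that is active near rest, was at 2.19 and 2.07 RPKM in *Tet null* IFM and at 0.849 and 0.341 RPKM in wild type, a difference of 1.30 (SE 0.28, 95% interval 0.55 to 2.06, limma adjusted p = 0.066).

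The 3 abundant potassium channel genes of muscle differed little between *Tet null* and wild type. *Sh* was at 29.8 and 25.8 RPKM in *Tet null* IFM and at 33.1 and 24.1 RPKM in wild type. *Shab* was at 22.0 and 18.1 RPKM in *Tet null* IFM and at 21.9 and 14.2 RPKM in wild type. The groups overlapped for both genes. The differences were -0.03 for *Sh* (95% interval -0.74 to 0.69, limma adjusted p = 0.96) and 0.17 for *Shab* (95% interval -0.63 to 0.98, limma adjusted p = 0.75).

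*slo*, which encodes the large-conductance calcium-activated channel, was at 13.4 and 12.9 RPKM in *Tet null* IFM and at 14.1 and 15.8 RPKM in wild type. Both *Tet null* libraries were below both wild-type libraries, by a small step. The difference was -0.18 (95% interval -0.74 to 0.38, limma adjusted p = 0.64). *SK*, the small-conductance calcium-activated channel, was at 1.58 and 1.75 RPKM in *Tet null* IFM and at 1.16 and 1.71 RPKM in wild type, with overlapping groups and a difference of 0.18 (95% interval -0.40 to 0.76, limma adjusted p = 0.65).

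Called higher were thus 2 of the 8 genes, *para* and *eag*, and called lower 0, against 8.29% of the 8466 genes tested called in either direction, 5.5% higher and 2.79% lower. At an unadjusted p under 0.05 stood 4 of the 8 genes, the called pair with *Shal* and *Shaw*, and 26.8% of all genes tested. Those 4 genes had both *Tet null* libraries above both wild-type libraries, an arrangement met by 29% of all genes tested. *slo* alone had both below, against 30.2% of all genes. The median difference was 0.68 over the 8 genes and -0.03 over all genes tested. The summed share of *Sh*, *Shab* and *slo* was 79.1% and 81.3% in *Tet null* IFM, below the 93.0% and 93.8% of wild type, while *Sh* stayed the most abundant of the 8 genes in all 8 IFM libraries.

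**Figure D2:**
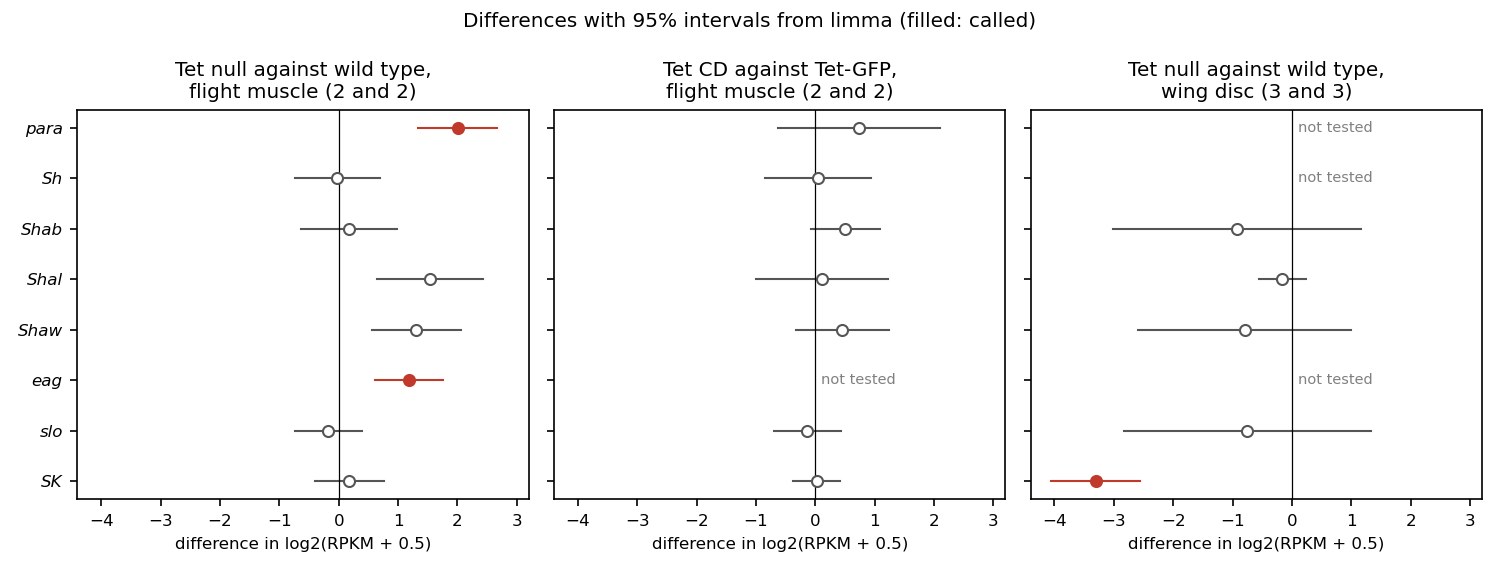
Differences in log2(RPKM + 0.5) with 95% intervals from limma for the 8 genes in 3 comparisons, filled where a gene was called, meaning that it passed both limits (adjusted p below 0.05, change beyond 1.5-fold). *para* and *eag* are called higher in *Tet null* IFM, none is called in *Tet CD* IFM, and *SK* is called lower in *Tet null* discs at -3.31.

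The comparison of *Tet CD* with *Tet-GFP* asked what changes when only the catalytic activity is lost. None of the 7 genes tested was called, and 0% of the 8141 genes tested were, by limma. At an unadjusted p under 0.05 stood 494 of those genes and 0 of the 7. *para* was at 4.29 and 2.38 RPKM in *Tet CD* libraries 1 and 3 and at 1.05 and 2.72 RPKM in *Tet-GFP* libraries 1 and 3. The groups overlapped, since *Tet-GFP* library 3 was above *Tet CD* library 3. The difference was 0.73 (95% interval -0.63 to 2.10, limma adjusted p = 0.95), an interval wide enough to hold the difference of 2.005 seen for *Tet null* as well as 0.

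*Shab* and *Shaw* were the only 2 members with both *Tet CD* libraries above both *Tet-GFP* libraries, against 15.4% of all genes tested, and no member had both below, against 18.8%. *Shab* was at 19.0 and 17.7 RPKM in *Tet CD* and at 14.5 and 11.2 RPKM in *Tet-GFP*, a difference of 0.51 (95% interval -0.08 to 1.09, limma adjusted p = 0.89). *Shaw* was at 1.28 and 0.802 RPKM in *Tet CD* and at 0.456 and 0.787 RPKM in *Tet-GFP*, a difference of 0.46 (95% interval -0.33 to 1.24, limma adjusted p = 0.95). Neither passed the test.

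*Shal* was at 1.90 and 1.11 RPKM in *Tet CD* and at 0.861 and 1.92 RPKM in *Tet-GFP*, with a difference of 0.11. *eag*, at 0.565 and 0.317 RPKM in *Tet CD* and at 0.166 and 0.358 RPKM in *Tet-GFP*, was below the limit on the mean and was not tested. Both genes had overlapping groups. *Sh*, *slo* and *SK* differed by 0.05, -0.14 and 0.02 in the test, with overlapping groups for each. *SK* had the narrowest interval of the 7 genes tested here, -0.37 to 0.42.

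The difference between the *Tet null* effect and the *Tet CD* effect was tested directly over the 8 IFM libraries. None of the 7 genes tested was called, against 0.683% of the 8344 genes tested, and 1 was at an unadjusted p under 0.05, as were 18.7% of all genes. The differences of effects were 1.42 for *Shal* (SE 0.57, unadjusted p = 0.045, limma adjusted p = 0.25), 1.27 for *para* (SE 0.59, limma adjusted p = 0.30) and 0.85 for *Shaw* (SE 0.42, limma adjusted p = 0.33). For *Sh*, *Shab*, *slo* and *SK* they lay between -0.33 and 0.15.

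The last 2 comparisons in IFM share libraries with those above, so that their values are not independent of them. Against *Tet-GFP*, *Tet null* IFM showed 0 members called, against 0.0119% of the 8369 genes tested, and 3 members at an unadjusted p under 0.05. These were *para* at 1.75 (SE 0.43, limma adjusted p = 0.14), *Shaw* at 1.25 (SE 0.22, limma adjusted p = 0.11) and *eag* at 1.06 (SE 0.24, limma adjusted p = 0.13). At that p stood 26.6% of all genes tested. *eag*, at 0.262 RPKM on average in *Tet-GFP*, passed the limit only through its *Tet null* values. Both *Tet null* libraries were above both *Tet-GFP* libraries for *para*, *Shab*, *Shal*, *Shaw* and *eag*, against 30.1% of all genes, and below them for *SK*, against 33%. Between the 2 control lines, *Tet-GFP* and wild type, none of 7 members tested was called, against 0% of 8156 genes, and at an unadjusted p under 0.05 stood 0 of the 7 and 843 of all genes. The largest of these differences in size was 0.58 for *Shal* (95% interval -0.37 to 1.53, limma adjusted p = 0.63), and both *Tet-GFP* libraries were above both wild-type libraries for *Shal* and *SK*, against 20.6% of all genes, and below them for no member, against 22.4%.

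Transcripts that mark neurons varied in the same libraries. The list holds 10 neuronal markers, among them the synaptic vesicle genes *nSyb* and *Syt1* and the active zone gene *brp*. Their summed level was 75.6 and 70.0 RPKM in *Tet null* IFM, 11.1 and 11.0 in wild type, 32.8 and 19.7 in *Tet CD* and 9.89 and 31.5 in *Tet-GFP*. Between *Tet null* and wild type, 8 of the 10 were called higher, against 5.5% of all genes tested, with a median difference of 2.22. By limma, 9 of the 10 had an unadjusted p under 0.05, as did 26.8% of all genes tested. The markers *onecut*, which was called, and *fne* passed the limit on the mean only through *Tet null* libraries. None of the 10 was at 0 in any IFM library. The nuclear marker *elav* differed by 0.18 (limma adjusted p = 0.68) and *fne* by 1.82 (limma adjusted p = 0.056). Bulk tissue does not show which cells of the dissected sample these transcripts came from. More neuronal material in it and more RNA per cell cannot be told apart either.

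*para* followed this sum from library to library. It ranged 7.82-fold in RPKM over the 8 IFM libraries but only 1.68-fold relative to the neuronal sum, of which it is no part, from 8.49% to 14.3% of that sum. *eag* behaved likewise, with a 7.34-fold range in RPKM and a 1.78-fold range relative to the sum. *Shal* and *Shaw* went from 6.08-fold and 6.43-fold to 2.90-fold and 3.06-fold. Among the 2 *Tet CD* and the 2 *Tet-GFP* libraries, all 4 genes were higher in *Tet CD* library 1 and in *Tet-GFP* library 3, the libraries with the higher neuronal sum in each group.

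*Sh*, *Shab*, *slo* and *SK* did the opposite. Their RPKM ranged 1.70-fold, 1.96-fold, 1.42-fold and 1.82-fold over the 8 IFM libraries, and their ratio to the neuronal sum ranged 9.81-fold, 7.61-fold, 8.34-fold and 9.26-fold. None of 11 flight muscle markers, such as *Act88F* and *Mhc*, was called by limma, with 1 at an unadjusted p under 0.05, and their sum was 35186 to 45305 RPKM in *Tet null* IFM and 36742 to 41557 RPKM in wild type. Of 5 glial markers tested, *nrv2* was called higher at 2.44 (limma adjusted p = 0.033). The other 4 were not called, with *Eaat1* at 0.99, *repo* at 0.74, *moody* at 0.44 and *Gli* at -0.76. By limma, 4 of the 5 glial markers, all but *moody*, had an unadjusted p under 0.05. The shares of all genes tested were 26.8% at such a p and 5.5% called higher. The summed glial level was 96.8 to 152 RPKM in *Tet null* IFM and 44.4 to 58.7 RPKM in wild type. Tracheal markers, 3 tested with 0 called and 2 at an unadjusted p under 0.05, summed to 13.7 to 19.2 RPKM in *Tet null* IFM and 25.4 to 34.7 RPKM in wild type. Progenitor markers, 3 tested with 0 called and 2 at an unadjusted p under 0.05, summed to 17.9 to 18.7 RPKM and 23.1 to 26.0 RPKM. They did not move together, with *zfh1* at -0.88, *Mef2* at -0.30 and *ct* at 0.70. The part of these cell types in the *para* and *eag* results was not tested.

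**Figure D3:**
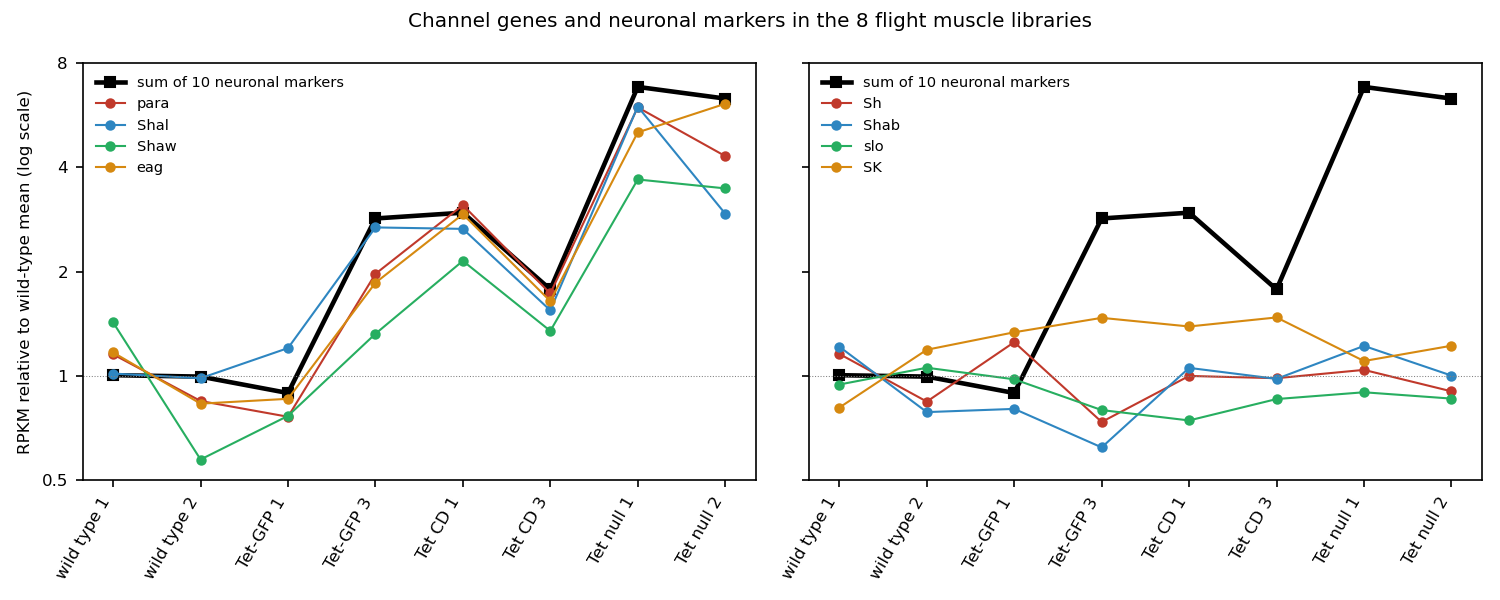
RPKM of the channel genes and of the summed 10 neuronal markers in each IFM library, relative to the wild-type mean, on a log axis. *para*, *Shal*, *Shaw* and *eag* broadly rise and fall with the marker sum, which is 9.89 to 75.6 RPKM, whereas *Sh*, *Shab*, *slo* and *SK* stay within a 1.96-fold range.

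The genes most like the mean of the members were sought over the 8 IFM libraries by Pearson's r. It was taken between log2(RPKM + 0.5) and its mean over the 7 members at or above 0.5 RPKM on average. That mean joins *para*, *Shal* and *Shaw* (6.08-fold to 7.82-fold ranges) with *Sh*, *Shab*, *slo* and *SK* (1.42-fold to 1.96-fold). Its pattern is therefore mostly set by *para*, *Shal* and *Shaw*. Among 8344 genes the highest were *Nrx-1* (r = 0.983), *rdgB* (r = 0.983), *Acsf2* (r = 0.978), *Rim* (r = 0.971) and *gprs* (r = 0.970). *Nrx-1* and *Rim* encode presynaptic proteins, a neurexin and an active zone scaffold. The 8 points share group and library differences, including those of the neuronal sum, and r is a description only.

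Other channel genes were read from lists of the same pathway. For sodium and sodium leak channels, 6 of the 9 listed genes were tested in *Tet null* against wild-type IFM and all 6 were called higher, none lower. They were *tipE* (1.73) and *TEH2* (1.60), auxiliary subunits of para channels, *NaCP60E* (1.61), a second gene of the sodium channel family, *na* (1.42), the leak channel NALCN of flies, and its partners *unc79* (1.40) and *unc80* (0.99). The median difference was 1.51, against -0.03 over all genes. Of these 6 genes, 4 (*tipE*, *TEH2*, *na* and *unc79*) passed the limit on the mean only through *Tet null* libraries. *tipE* was at 2.22 and 1.77 RPKM in *Tet null* IFM and at 0.265 and 0.233 RPKM in wild type, and at 0.203 and 1.19 RPKM in *Tet-GFP* libraries 1 and 3. The low and the high *Tet-GFP* library were again those with the low and the high neuronal sum.

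Of the other potassium channel genes, 6 of 11 were tested and 1 was called higher, the inward rectifier *Irk2*, against the 5.5% of all genes called higher that is the background for each of these lists. It was at 9.85 and 5.18 RPKM in *Tet null* IFM and at 1.47 and 1.25 RPKM in wild type, a difference of 2.04 (SE 0.34, limma adjusted p = 0.043). Unlike *para*, *Irk2* was lower in *Tet-GFP* library 3 (1.15 RPKM) than in library 1 (1.69 RPKM). *KCNQ* (-0.36) and the ERG channel gene *sei* (-0.59) were not called.

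Among 8 partners and regulators of potassium channels, 1 was called higher, *dysc* (1.70), a scaffold protein that acts with slo. *dysc* also passed the limit only through *Tet null* libraries. The Sh beta subunit gene *Hk* was at 8.41 and 7.36 RPKM in *Tet null* IFM and at 7.77 and 8.75 RPKM in wild type, a difference of -0.06 (limma adjusted p = 0.88). *qvr*, which encodes the Sh regulator SLEEPLESS, differed by -0.15 (limma adjusted p = 0.78), and the slo-binding protein gene *Slob* by 0.88 (limma adjusted p = 0.080). Like *dysc*, *Slob* passed the limit only through *Tet null* libraries.

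Of 6 voltage-gated calcium channel and Ih genes, 3 were called higher. These were the synaptic calcium channel gene *cac* (1.20), its auxiliary subunit gene *stj* (1.54) and *Ih* (1.82), a hyperpolarisation-activated cation channel. *stj* passed the limit only through *Tet null* libraries. *Ca-alpha1D*, the L-type channel of muscle, was not called (-0.75, limma adjusted p = 0.15). None of 4 regulators of *para* transcripts was called by limma, with 1 (*Adar*) at an unadjusted p under 0.05: the translational repressor *pum* (-0.04), the splicing regulator *ps* (-0.46), the helicase *mle* (-0.08) and the RNA-editing enzyme *Adar* (0.69). In the other comparisons, 0 genes of these 5 lists were called by limma. At an unadjusted p under 0.05 stood 2 of 26 tested in *Tet CD* against *Tet-GFP*, 2 of 29 in discs, 15 of 29 in *Tet null* against *Tet-GFP*, 1 of 22 between the control lines and 6 of 29 in the difference of effects. The shares of all genes tested were 6.07%, 17.7%, 26.6%, 10.3% and 18.7% in the same order. In discs without wild-type library 2, 15 were tested, with 0 called and 4 at an unadjusted p under 0.05. Of all 9724 genes tested in that setting, 2104 were at such a p.

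**Figure D4:**
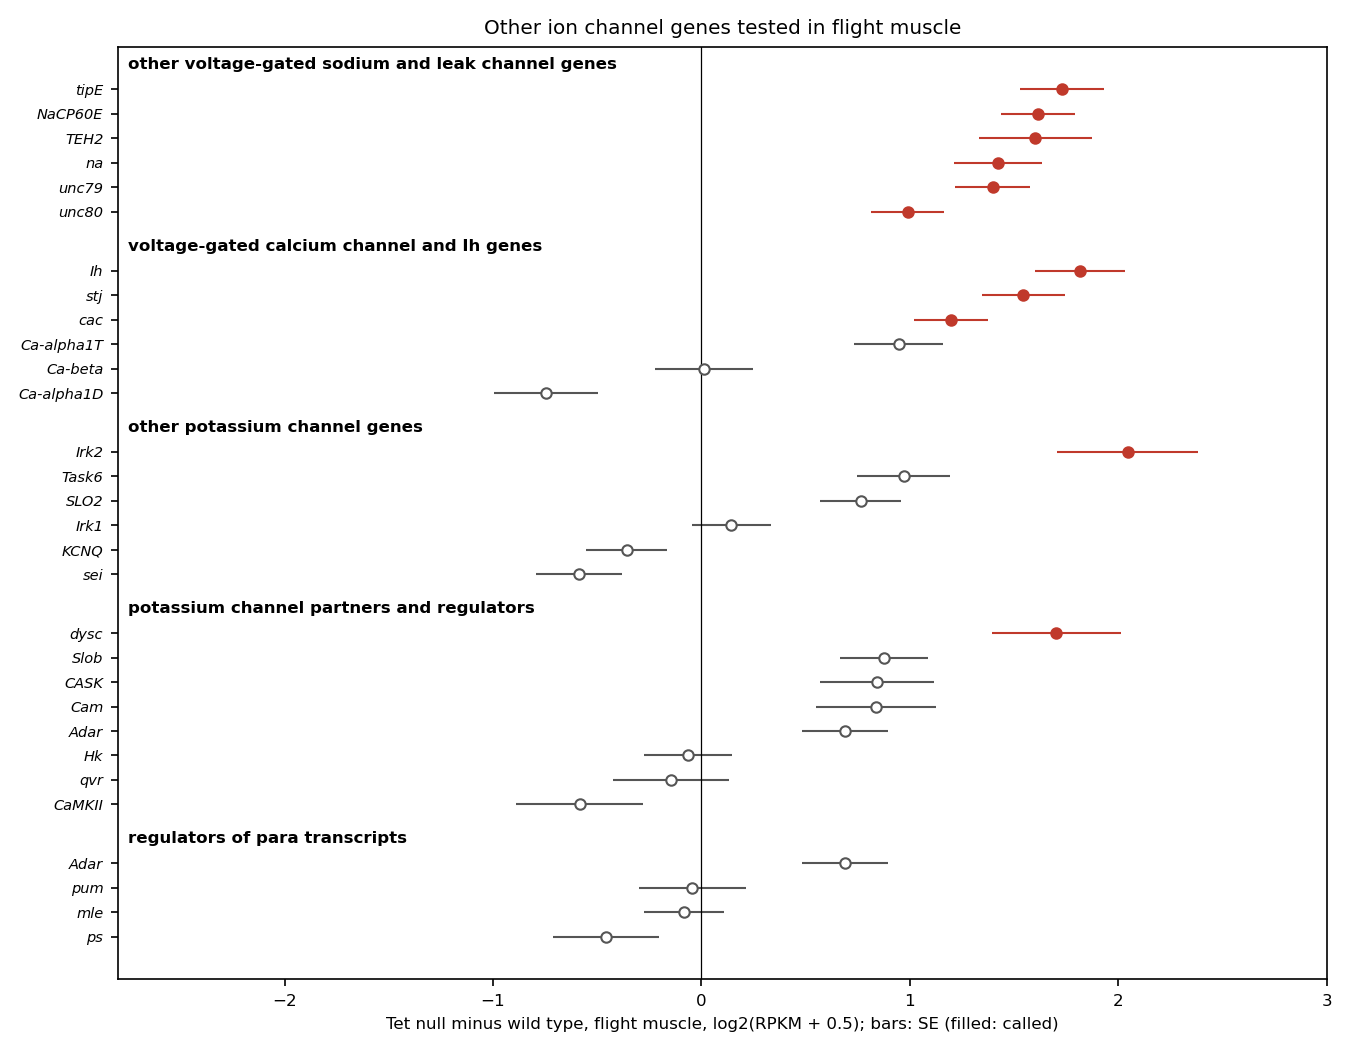
Differences between *Tet null* and wild-type IFM in log2(RPKM + 0.5), with SE bars, for the genes tested from the 5 lists of other channel and regulator genes, filled where called; *Adar* is in 2 lists and drawn in both. All 6 sodium and leak channel genes tested, of 9 listed, lie at 0.99 or above, while *Hk*, *qvr* and *KCNQ* lie at or below 0. Of the 6 sodium and leak channel genes, 4 passed the limit on the mean only through *Tet null* libraries.

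In wing discs the question was the same at the stage of the muscle progenitors, and the member that changed was another one. *SK* was at 0.0685, 0.130 and 0.0412 RPKM in the 3 *Tet null* discs and at 4.98, 5.53 and 5.19 RPKM in the 3 wild-type discs. The lowest wild-type library was far above the highest *Tet null* library, and wild-type library 2 was close to the other 2. From the step of 1 read and the annotated exon length, these levels amount to about 14 to 34 reads in each *Tet null* library and 1167 to 1367 reads in each wild-type library. The mean in wild type was 65.6-fold that in *Tet null*, and 63.7-fold without wild-type library 2.

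On the test scale *SK* fell by 3.31 (SE 0.36, 95% interval -4.05 to -2.56, limma adjusted p = 3.1e-06), and its fall ranked 10 in size among 12631 genes tested. The added constant shrinks this value, since *SK* in *Tet null* was below it. Without 1 library at a time, the difference was -3.37 to -3.26 and the adjusted p 1.6e-13 to 0.0025, the last without wild-type library 2. *SK* was the 1 member called lower of 5 tested, and 0 were called higher, against 4.15% of all genes called in either direction, 2.48% lower and 1.67% higher. With the replicate number as a block, *SK* was again the 1 member called, and 936 genes were called in all, or 7.41%, of which 593 were lower (4.69%). It was also the only member whose groups did not overlap, against 12.5% of all genes with all *Tet null* discs below all wild-type discs. No member had all *Tet null* discs above all wild-type discs, an arrangement of 13% of all genes. *SK* passed the limit on the mean only through its wild-type values.

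The neighbours of *SK* on the X chromosome were looked at for a shared change. Of 15 genes tested within 50 kb of *SK*, 1 was called, against 4.15% of all genes tested. This was the non-coding gene *CR45517*, which rose by 1.24 (limma adjusted p = 9.0e-05). The median difference of the 15 genes was 0.22 and their range -0.92 to 1.24. Without wild-type library 2, 14 were tested and 2 called, *CR45517* (1.16) and the non-coding *CR44471* (1.70), with a median of 0.11. Of all 9724 genes tested in that setting, 289 were called. A further 7 genes within 50 kb were below the limit on the mean and were not tested. In 2 of them all *Tet null* discs were below all wild-type discs, *NAAT1* at 0.0546 to 0.129 RPKM against 0.214 to 1.61 RPKM, and *SPR* at 0 to 0.0343 RPKM against 0.0474 to 1.16 RPKM. The highest value of each was that of wild-type library 2. Among the genes tested, which leave out these 7, 12.5% had all *Tet null* discs below all wild-type discs. In the reference annotation a transposable element lies in an intron of *SK*, at X:5389817-5392863 on the opposite strand. Such elements also lie in introns of *para*, *Sh*, *Shab* and *eag*, so this is not particular to *SK*. In IFM, *SK* was at 1.16 to 2.11 RPKM in all 8 libraries, *Tet null* included.

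Markers of cell types also differed between the disc groups. Of 5 markers of adult muscle progenitors, *twi* (-0.82, limma adjusted p = 0.0044) and *Him* (-2.26, limma adjusted p = 1.4e-06) were called lower, and the list summed to 44.7 to 51.4 RPKM in *Tet null* and 64.9 to 93.1 RPKM in wild type. All 3 fat body markers tested and 2 of 5 hemocyte markers were called higher. Of all genes tested in discs, 1.67% were called higher and 2.48% lower. Fat body markers summed to 42.0 to 52.3 RPKM in *Tet null* and 5.42 to 22.2 RPKM in wild type. Of 7 epithelial markers tested, *wg* was called higher. Of 3 tracheal markers, *verm* was called higher (0.80, limma adjusted p = 0.029), and the list summed to 414 to 451 RPKM in *Tet null* and 215 to 315 RPKM in wild type. Neuronal markers, 7 tested with 0 called, summed to 20.9 to 21.4 RPKM in *Tet null* discs and 21.4 to 37.9 RPKM in wild-type discs. Without wild-type library 2, *twi*, *Him*, *wg* and *verm* were still called, while 1 of 3 fat body markers and 1 of 5 hemocyte markers were called higher. The wild-type sums were then 78.5 to 93.1 RPKM for progenitors, 5.42 to 17.6 for fat body, 313 to 315 for trachea and 21.4 to 26.0 for neurons. The part of these cell types in the change of *SK* was not tested.

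*Shal*, the other member abundant in discs, was at 5.11, 5.39 and 5.57 RPKM in *Tet null* and at 7.32, 6.38 and 4.72 RPKM in wild type. The groups overlapped, and the spread was wider in wild type. The difference was -0.16 (SE 0.19, 95% interval -0.56 to 0.23, limma adjusted p = 0.64), and -0.13 without wild-type library 2.

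The remaining 6 genes were near the floor of the disc libraries, apart from wild-type library 2. *Shab* was at 0.0478, 0.121 and 0.0536 RPKM in *Tet null* discs and at 0.0737, 2.98 and 0.148 RPKM in wild-type discs. *para* was at 0.0645, 0.189 and 0.0942 RPKM in *Tet null* and at 0.154, 1.87 and 0.130 RPKM in wild type. Outside that library, the values of the groups overlapped for all 6 genes. *Shab*, *Shaw* and *slo* passed the limit on the mean only through wild-type library 2, and their differences of -0.93, -0.80 and -0.75 had intervals reaching from -3.01, -2.59 and -2.84 to above 0. *para*, *Sh* and *eag* were not tested. Without that library, the wild-type mean was 1.23-fold that of *Tet null* for *para*, 1.497-fold for *Shab*, 1.53-fold for *Sh*, 1.06-fold for *Shaw*, 1.71-fold for *eag* and 0.828-fold for *slo*, and the lowest value, 0.00319 RPKM for *eag* in a *Tet null* disc, came from about 1 read. No difference was detectable for these genes at this depth.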

How the data were processed

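RNA came from dissected IFM and wing discs, and libraries were made with the Ovation SoLo kit and sequenced as paired reads. The authors trimmed reads, aligned them to dm6 and counted them per gene. The submitters' processing notes name Trimmomatic 0.32, HISAT2 2.1.0, HTSeq 0.11.2, Cufflinks 2.2.1 and DESeq2 1.22.2. The deposited tables, 1 per tissue, hold RPKM written with decimal commas. An automatic check of units reads decimal points only, so that the unit was recorded as other. Read counts were not used here, and the DESeq2 test was not repeated.

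Genes were matched by symbol, because *para* has a different identifier in each table, and coordinates are those of BDGP6.54 (dm6). The depth behind RPKM, read from the steps of low values, was 35.7 to 49.1 M reads in IFM and 21.5 to 31.2 M reads in discs. At least 98.4% of low values lay within 0.1 of a whole read. The test was limma's moderated test with a mean-variance trend (limma 3.58.1, R 4.3.3). It was run on log2(RPKM + 0.5) for each gene whose mean over the compared libraries reached 0.5 RPKM. A gene was called at a Benjamini-Hochberg adjusted p under 0.05 over all genes tested and a fold change over 1.5. The test was tried on simulated data with noise drawn for each gene on its own. Such data lack shifts shared by a whole library, so the trial does not show how secure the calls are. Fold changes on this scale understate those of low genes.

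The genes and lists were chosen with earlier results of these data known. Named genes are the 8 members, *Tet*, list genes called or known as partners of a member, and cell type markers. The 5 genes most correlated with the mean of the members are also named. Tables and plots were made in Python 3.11.15 with matplotlib 3.10.9. Alternatives were other constants (0.1 and 1), no limit or a limit of 1 RPKM, median-ratio scaling, no trend, a replicate block, all IFM libraries in 1 fit, and leaving out each library. Disc libraries of the same number deviated together (r = 0.176, 0.303 and 0.155 for numbers 1, 2 and 3, across genes). Every same-numbered pair was above 0.1, but so was *Tet null* number 1 with wild-type number 3 (r = 0.191). The other unlike-numbered pairs lay between -0.306 and 0.0623. These correlations thus do not single out the numbers as pairs. The numbers were used to pair the discs in the block alternative only, and the labels do not say that they mark a shared day or litter. *roX1* and *roX2*, as a check of sex, were not analysed here in IFM.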

Additional observations from a re-analysis of the deposited data

How the results depend on the processing

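The count of members called in *Tet null* against wild-type IFM was the count that moved most: 2 as reported, 1 with a constant of 0.1, 1 with a limit of 1 RPKM, 1 with all 8 IFM libraries in 1 fit, 0 with no limit on low values, and 0 without any 1 library. In the other 5 comparisons the count stayed at its reported value under all alternatives run, 1 in discs and 0 elsewhere. Over all genes, the count called in *Tet null* IFM was 702, and 92 to 703 under the other settings, but 0 to 47 without 1 library. In discs it was 524, and 34 without the trend.

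With the replicate block, *Tet null* against wild-type IFM gave 1 member called, *para* (adjusted p = 0.028), and *eag* was not called (adjusted p = 0.084). Same-numbered IFM libraries correlated at r = 0.086 in this comparison and at 0.475 between *Tet CD* and *Tet-GFP*, and are taken to share only a number. With 2 libraries a group, both same-numbered pairs have the same r by construction, and unlike-numbered pairs its negative. Each r is thus a single value. In discs the block kept *SK* called (adjusted p = 1.8e-14) and called 936 genes in all. The block changed no other member's call. No paired analysis was possible for *Tet null* against *Tet-GFP* or *Tet-GFP* against wild type because their columns share fewer than 2 numbers.

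Differences near 0 changed sign without one library, none of them called. *Sh* ranged from -0.25 to 0.20 in *Tet null* against wild-type IFM, -0.33 to 0.42 in *Tet CD* against *Tet-GFP*, -0.36 to 0.39 in *Tet null* against *Tet-GFP*, -0.42 to 0.34 in *Tet-GFP* against wild type and -0.45 to 0.30 in the difference of effects. *SK* ranged from -0.027 to 0.38, -0.032 to 0.079 and -0.050 to 0.36 in the first, second and last of these. *slo* ranged from -0.28 to 0.0031 in the second, -0.15 to 0.14 in the third and -0.18 to 0.10 in the last. *Shab* ranged from -0.13 to 0.48 in the first, *Shal* from -0.30 to 0.53 in the second, and *Shaw* from -0.28 to 0.40 and *para* from -0.27 to 0.78 in *Tet-GFP* against wild type. With median-ratio scaling *Sh* was at -0.0083 against *Tet-GFP* and at 0.0057 between the control lines. The cause was not tested. With 2 libraries a group, intervals in IFM are wide, and genes under 0.5 RPKM rest on few reads in discs.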
